A study of Mus musculus with 24 samples.

Results

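Fragments that entered the genome of embryonic stem cells (ESCs) without methylation were followed into neuronal progenitors (NPs), to ask how much methylation they gained on differentiation and around which transcription factor (TF) motifs they stayed low. Of the 24 samples of the series, 3 hold these fragments as pooled constructs, 2 of ESCs and 1 of NPs. Single ESC lines with untreated fragments were not used. The 2 ESC samples, one of them labelled with a capillary sequencer, share a single table and count as 1 pool, so 2 pools of cells are compared. A CpG of a construct entered when it lay between −300 and 260 bp from the motif and had at least 10 reads in both pools. This left 1456 of 1612 CpGs, and all 62 of 62 constructs.

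The study used Hi-TransMet, in which a bacterial DNA fragment called FR1, carrying a single TF motif and barcodes, is inserted at the β-globin locus by recombinase-mediated cassette exchange and read by bisulfite sequencing. The constructs hold 30 wild-type (WT) motifs, 31 scrambled (Sc) control motifs and 1 fragment with no motif. Both pools are wild-type TC-1 cells of the strain C57BL/6 X 129S5, and both carry the library in the −SssI condition, that is, with no methyltransferase treatment before transfection. The NPs were differentiated from the transfected ESC pool through cellular aggregates and retinoic acid. How many independent insertions stand behind a construct is not known, and neither pool has a labelled replicate.

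In mammals, DNMT3A and DNMT3B, helped by the catalytically inactive DNMT3L, place methyl groups on unmethylated CpGs. DNMT1, brought to newly replicated DNA by UHRF1, copies the marks to the daughter strand, while TET enzymes oxidise them and the glycosylase TDG excises oxidised bases. Bound factors such as CTCF and REST are known to keep the DNA around their sites low in methylation, and binding of NRF1 is itself blocked by methylation.

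In the NP pool most of FR1 was close to full methylation. The mean level of the 31 Sc fragments was 55.8% ± 17.3 (SD between fragments) in ESCs and 87.1% ± 15.9 in NPs, and that of the 30 WT fragments was 48.0% ± 22.7 and 82.7% ± 14.5. At least 80% methylation was seen in 2 of 62 fragments in ESCs and in 54 of 62 in NPs. By Fisher's exact test (two-sided, Benjamini-Hochberg adjusted over all CpGs, with a difference of at least 10 percentage points), 1145 of 1456 CpGs, or 78.6%, were higher in NPs. Only 37, or 2.54%, were lower. A CpG had 11 to 2521 reads in ESCs (median 150) and 11 to 4619 in NPs (median 253.5), and each read is 1 molecule within a run, since reads had been deduplicated by molecular identifiers. These tests compare the reads of 2 pools, not the conditions, and every interval given with ± beside a single fragment is a 95% interval that covers counting error only.

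The tables number their columns by sequencing run, and the runs of ESCs stand apart from each other. ESC run 4 was 32.7% methylated over its 85406 CpG calls, whereas ESC runs 5, 1 and 2 were at 78.5%, 78.7% and 78.8% over 133720, 168326 and 9139 calls. The small ESC runs 3 and 6 were at 41.9% and 53.1%, ESC run 7 at 60.0% and ESC run 12, with 181 calls, at 63.5%. NP runs 9, 10, 11, 2 and 8 lay between 84.8% and 88.0%, NP run 6 was at 92.0%, and NP run 7, of which 46.0% of the reads came from the OCT4SOX2 WT fragment, was at 74.7%. The spread between ESC runs was thus wider than that between NP runs. ESC runs 5, 1 and 2 differed among themselves in construct makeup by about the sampling noise (chi-square over degrees of freedom 0.579 to 1.02), as did NP runs 9, 10 and 2 (0.497 to 1.31, smallest p = 0.0645). Whether such runs are repeat sequencing of the same DNA is not stated.

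By construct makeup, 9 of the 15 runs fall into 2 sets that join ESC to NP runs, and ESC run 7 and NP runs 6 and 7 fall into neither. ESC runs 3, 6 and 12 were put in no set, since their makeup was not compared. ESC run 4 resembled NP runs 2, 9 and 10 (r = 0.727 to 0.739 over constructs, set 1), and ESC runs 1, 2 and 5 resembled NP runs 8 and 11 (r = 0.711 to 0.817, set 2), while runs of different sets correlated at −0.194 to −0.101. The points are constructs that share libraries. The resemblance is not identity, since the makeup of ESC and NP runs of a set differed by more than the sampling noise (chi-square over degrees of freedom 14.1 to 17.2 in set 1 and 14.9 to 47.0 in set 2). The authors state that they pooled biological and technical replicates after these had grouped together, and which runs are which, or what separates the sets, is not given in the labels. Within set 1, the Sc fragments went from 37.2% to 90.1% (mean gain 53.0 points, 24 fragments), the WT fragments gained 51.5 points (26 fragments), and 1113 of 1199 CpGs, or 92.8%, were higher in NPs. Within set 2, the Sc fragments went from 74.9% to 87.3% (12.4 points, 19 fragments), the WT fragments gained 11.4 points (15 fragments), and 309 of 673 CpGs, or 45.9%, were higher. Lower CpGs numbered 10, or 0.834%, in set 1 and 63, or 9.36%, in set 2. The RUNX1 WT fragment, named after its values were seen, went down in set 2, from 92.0% to 64.6% (−27.4 ± 14.6 points). This fall comes from NP run 8, where it was at 33.7% (median 23 reads per CpG), since it was at 100% in NP run 11 (20 reads). The direction of the mean gain is shared by both sets, and its size is not.

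**Figure D1:**
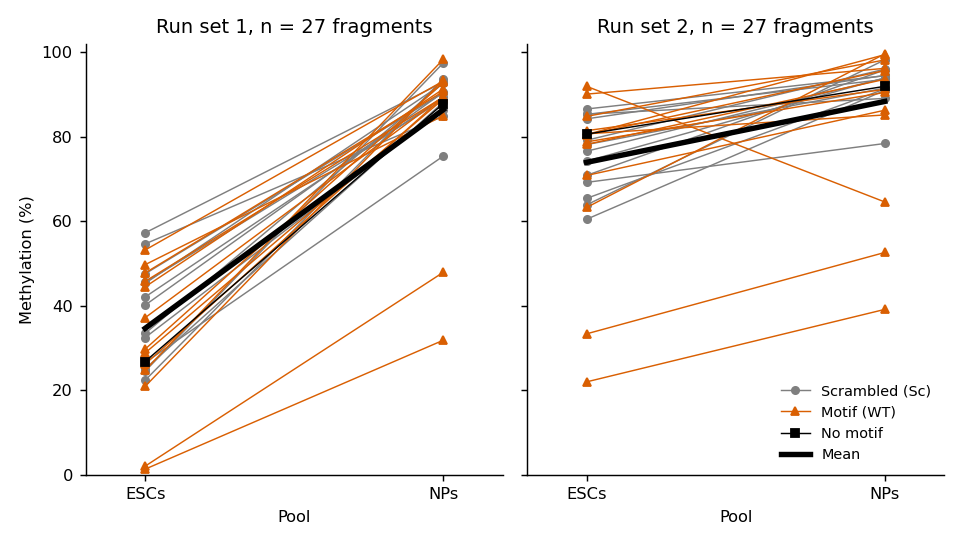
Methylation in percent of the 27 fragments held by both run sets, in the ESC runs and in the NP runs of each set, with a thin line for each fragment and a thick line for the mean. Set 2 was above set 1 in 27 of 27 fragments in ESCs (means 74.0% and 34.7%), whereas the means in NPs were 88.4% and 86.5%.

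In the 27 fragments present in both sets, the means of the sets were far apart in ESCs and close in NPs. In ESCs, set 2 exceeded set 1 by 39.3 points on average, with differences of 15.2 to 63.0. In NPs, set 2 was higher in 18 of the 27 fragments and the means were 86.5% and 88.4%, while single fragments still differed by −25.0 to 22.8 points. The mean gain of the same fragments was therefore 51.8 points in set 1 and 14.4 in set 2. Across the 62 fragments, the gain followed the share of a fragment's ESC reads that came from run 4 (r = 0.780, rho = 0.847, a description, since the fragments share runs). The 11 fragments with over 90% of their ESC reads from run 4 gained 52.2 points on average, and the 24 fragments with under 10% gained 18.2. Without ESC run 4, the mean gain was 17.2 points for Sc and 18.4 for WT fragments, and 555 of 1025 CpGs, or 54.1%, were higher in NPs.

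Among the Sc fragments, 30 of 31 gained methylation, 29 of them beyond their interval, and 571 of their 727 CpGs were higher in NPs. The fragment with no motif, which carries no inserted TF site, went from 59.0% to 89.9%, a gain of 30.9 ± 12 points, close to the Sc mean of 31.3, and 24 of its 24 CpGs were higher. Its gain was 61.1 points in set 1, 11.3 in set 2 and 10.5 without ESC run 4. In set 2 the gain stayed within its interval of ± 19.4, with 2 of 19 CpGs higher and 1 lower. The largest gains of Sc fragments were those of ZF5, from 24.6% to 93.7% (69.1 ± 9.28 points), of ER, from 19.7% to 88.4% (68.8 ± 12.4), and of RUNX1, from 33.1% to 93.0% (59.8 ± 8.32). ZF5 Sc was at 29.4% in ESC run 4 and at 0.185% in ESC run 6, and its gain without run 4 was 88.1 points. ESC run 4 held 63.7%, 100% and 94.9% of the ESC reads of these 3 fragments, against 5.14% and 0.184% for the Sc fragments of GATA and CTCF.2, which were already high in ESCs. CTCF.2 Sc went from 78.9% to 91.1% (12.2 ± 2.53 points). GATA Sc went from 81.3% to 88.4%, within its interval of ± 7.65 over all runs, and the difference was 3.96 points without NP run 11. It gained beyond its interval in set 1 (30.3 ± 22.0 points) and in set 2 (8.29 ± 8.04).

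The c-REL Sc fragment went the other way. It was at 34.9% in ESCs and 3.70% in NPs, a difference of −31.2 ± 13.5 points, and 11 of its 18 CpGs were lower in NPs, by −63.4 to −26.2 points. It rests on a median of 82 reads per CpG in ESCs and 18 in NPs, of which 94.4% came from NP run 8. Its WT partner was at 43.6% in ESCs and 92.6% in NPs. NP run 8 held 3 other fragments that were over 20 points lower there than in any other NP run: OCT4 Sc at 4.70% (87.6% to 90.5% elsewhere), RUNX1 WT at 33.7% (89.7% to 100%) and PAX7.2 Sc at 46.6% (87.5% to 96.5%), on medians of 25, 23 and 12 reads. The low level of c-REL Sc thus cannot be told apart from a property of that run. The number of cells behind these NP reads was not tested.

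**Figure D2:**
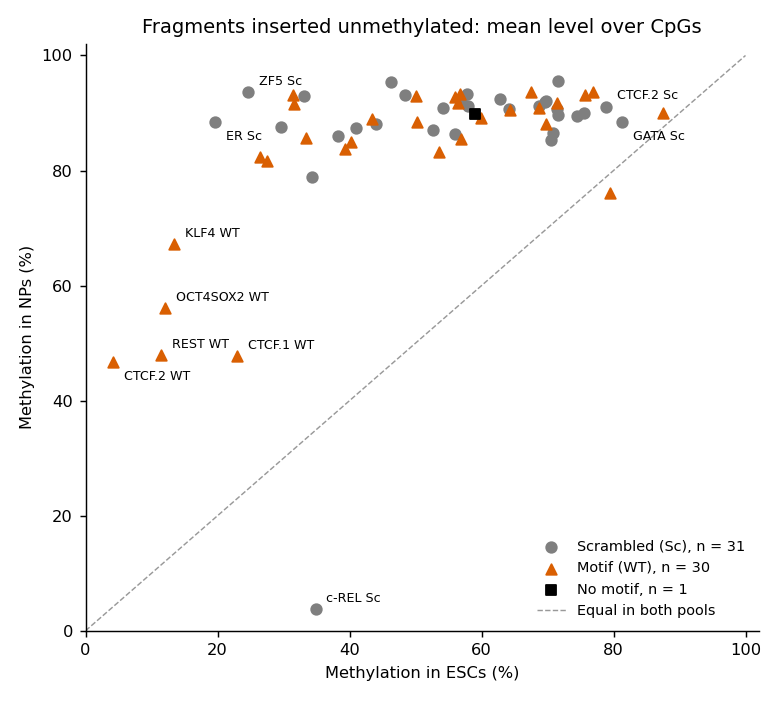
Mean methylation over CpGs in ESCs (horizontal, percent) and in NPs (vertical, percent), with 1 point for each of the 62 fragments and a dashed line of equal levels. In NPs 54 of 62 points lie at 80% or above, 5 WT fragments lie under 70%, and c-REL Sc lies alone at 3.70%.

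WT fragments started lower and gained as much, with 29 of 30 higher on average in NPs, 28 beyond their interval, and 550 of 705 CpGs higher. The exception in sign was N-MYC WT, at 79.5% and 76.1%, a difference well within its interval of ± 25.5 at 12 reads per CpG in NPs. PAX7.2 WT, at 87.4% in ESCs, gained 2.52 ± 6.47 points and also stayed within its interval. In NPs, 6 fragments remained under 70%, and 5 of them carry a WT motif: CTCF.1, CTCF.2, REST, OCT4SOX2 and KLF4. The sixth is c-REL Sc. The 37 lower CpGs were concentrated as well, with 11 in c-REL Sc, 6 in N-MYC WT and 4 in PAX7.2 WT, and 16 spread over 13 other fragments.

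The levels along FR1 have to be read with the runs in mind, since both sides of the motif rest on different runs. The upstream side holds 18 CpGs from −291 to −32 bp and the downstream side 5 CpGs from 37 to 252 bp. In ESCs, runs 1 and 5 held 37.7% and 29.8% of the upstream reads but 0.0307% and 1.84% of the downstream reads, of which run 4 held 46.3% and run 7 nearly as much. Over all runs, the Sc fragments went from 58.6% to 88.6% upstream and from 47.3% to 84.5% downstream, gains of 30.1 and 37.3 points. With ESC run 4 and NP run 9 alone, a pair that has reads on both sides and was chosen after the data were seen, 21 Sc fragments went from 35.2% to 92.3% upstream and from 40.4% to 84.8% downstream, gains of 57.1 and 44.4 points. For Sc fragments the order of the sides in ESCs and in the gain was thus turned around, and the lower NP level downstream was found both ways. WT fragments gained 33.2 points upstream and 42.3 downstream over all runs and 53.3 and 48.4 in this pair (23 fragments).

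The CpG at 151 bp was the lowest in NPs both ways, at 61.9% for Sc and 53.3% for WT fragments over all runs and at 63.9% and 52.0% in the pair. In ESCs it was the lowest over all runs, at 21.8% for Sc and 15.5% for WT, while in run 4 the lowest CpG of Sc fragments was at −208 bp, with 11.4%. The levels of the CpGs in both cell types correlated at r = 0.853 for Sc and 0.848 for WT over all runs and at 0.580 and 0.717 in the pair (23 CpGs, which share their reads with their neighbours). Differences between the CpGs of a fragment narrowed: the median SD within a Sc fragment was 20.4 points in ESCs and 10.2 in NPs over all runs, smaller in NPs in 29 of 31, and 22.2 and 11.6 in the pair, smaller in 20 of 21. For WT fragments it was 19.9 and 13.1 over all runs and 21.0 and 13.1 in the pair. An SD of percentages has less room near full methylation, and it also holds counting error. What these contribute to the narrowing was not tested.

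**Figure D3:**
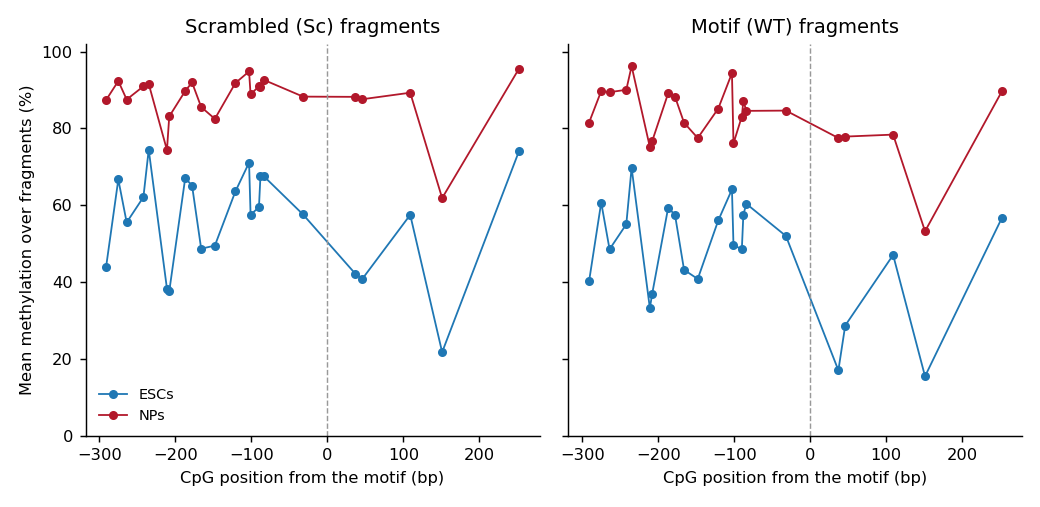
Mean methylation in percent of Sc and of WT fragments at each CpG outside the motif, against the distance from the motif in bp, in ESCs and in NPs. The NP line lies above the ESC line at each CpG in both panels, and the lowest point of each line is at 151 bp.

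Against this general gain, the question was which WT motifs kept the DNA around them lower than their Sc controls. At each CpG the difference Δmet is the WT minus the Sc level, and a hypomethylated region (HMR) is a run of at least 3 consecutive CpGs over more than 50 bp, all of them at least 10 points lower at WT and past an adjusted p of 0.05 in Fisher's exact test. Of 30 motifs, 15 had an HMR in ESCs and 10 in NPs. CTCF.1, CTCF.2, REST, OCT4SOX2, KLF4, SOX9, SOX2, PU.1 and CREB had one in both. NRF1, KLF7, OTX2, SOX17, ETS and FOXA1 had one in ESCs and none in NPs, NANOG had one in NPs only, and 14 motifs had none. Comparing WT with Sc within runs, over fewer CpGs for some motifs, gave HMRs for 11 motifs in ESCs and 10 in NPs. Only 6 then had one in both: CTCF.1, CTCF.2, REST, OCT4SOX2, KLF4 and PU.1. SOX9 had none in either pool, CREB none in ESCs, and SOX2 had no CpG to compare within an ESC run. Over all runs, 316 of 699 CpGs compared (45.2%) were lower at WT in ESCs and 215 (30.8%) in NPs, and 189 and 112 were higher at WT. Mean Δmet over motifs was −8.41 points in ESCs and −4.06 in NPs, a difference that owes much to c-REL, since without it the means were −9.00 and −7.26 (29 motifs). Over all runs Δmet was closer to 0 in NPs for 28 of 30 motifs, all but c-REL and ETS. In set 1, where WT and Sc share their runs, it was closer to 0 in NPs for 13 of 19 motifs and further from 0 for REST, CTCF.1, KLF4, KLF7, NFY and ETS, and in set 2 it was closer for 6 of 9. The 28 motifs include 8 with Δmet above 0 beyond the interval in ESCs, so they are not a count of lost protection. With 54 of 62 fragments at 80% or above in NPs, less room was left for a difference in points. What this contributes was not tested.

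Whether the ratio of WT to Sc methylation odds changed was tested with Zelen's exact test of equal odds ratios in the 2 pools. The odds ratio differed at 394 of 699 CpGs, or 56.4%, with 172 toward lower at WT in NPs and 222 toward higher. CpGs said to differ between the pools are those of this test. It does not test Δmet in points, and the directions can part. Δmet of KLF7 shrank by 20.9 points, while 11 of its 14 such CpGs went toward lower at WT in NPs and 3 toward higher. For SOX2 it shrank by 11.3 points, with 8 toward lower and 5 toward higher. For KLF4 both went together, with 20 of 21 toward higher. Without ESC run 4, 346 CpGs of 18 motifs had enough reads in both pools, 191 of them differed between the pools, and HMRs were found for 5 motifs in ESCs, 3 in NPs (CTCF.1, CTCF.2 and PU.1) and 2 in both. KLF4, NANOG, OCT4SOX2, REST, SOX2 and SOX9 could then not be compared for lack of ESC reads outside run 4, while the other motifs with an HMR were compared.

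**Figure D4:**
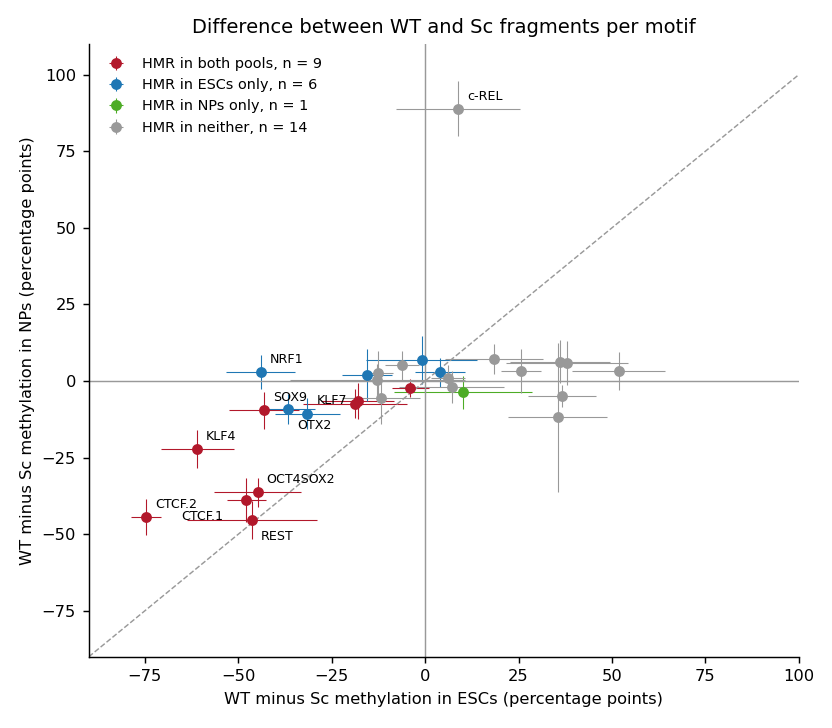
Δmet (WT minus Sc, percentage points) of each of the 30 motifs in ESCs against NPs, with error bars of the 95% counting interval, colours for where an HMR was found and a dashed line of equal differences. REST, CTCF.2, CTCF.1, OCT4SOX2 and KLF4 lie far below 0 in both, NRF1 is far below 0 in ESCs and near 0 in NPs, and c-REL stands alone at 88.9 points in NPs.

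The strongest protection in NPs was around the sites of CTCF, an insulator protein that organises chromatin loops, and of REST, a repressor of neuronal genes. The REST WT fragment went from 11.5% to 47.9% while its Sc partner went from 57.8% to 93.4%. Its Δmet was −46.3 ± 17.3 points in ESCs and −45.4 ± 6.21 in NPs, a change of 0.873 ± 18.4 points (−4.54 to 1.93 with any run but ESC run 4 left out, and no comparison possible without that run). In set 1 Δmet of REST went from −36.6 to −45.2 points, a change of −8.57. CTCF.2, one of 2 CTCF motifs, went from 4.23% to 46.8% at WT and from 78.9% to 91.1% at Sc. Its Δmet shrank from −74.7 ± 4.07 to −44.3 ± 5.97 points, and 19 of its CpGs differed between the pools, each toward higher at WT in NPs. ESC run 4 held 86.1% of the ESC reads of CTCF.2 WT and 0.184% of those of its Sc fragment, and in set 2, where both share their runs, Δmet of CTCF.2 went from −60.2 to −52.9 points, a change of 7.37 in place of 30.3. CTCF.1 WT went from 23.0% to 47.7% and its Sc fragment from 70.9% to 86.5%, with Δmet of −47.8 ± 5.20 and −38.8 ± 7.12 points. These 3 WT fragments thus stayed far below their controls in NPs, and their NP levels differed by run set, at 31.9%, 48.0% and 47.9% for CTCF.1, CTCF.2 and REST in set 1 and at 52.6% and 39.2% for the CTCF motifs in set 2.

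Each of the 3 gained methylation over all runs and kept a gap, and the gap was seen in several runs. In set 2 the gain of CTCF.2 WT, 17.2 ± 24.5 points, stayed within its interval. REST WT was at 10.9% in ESC run 4 and at 48.6%, 47.2% and 50.1% in NP runs 9, 10 and 2, whereas its Sc fragment was at 47.6% in ESC run 4 and at 93.2%, 96.8% and 96.8% in those NP runs. CTCF.1 WT was at 2.00% in ESC run 4 and at 33.6% and 33.1% in ESC runs 5 and 1. In NPs it was at 28.8%, 31.5% and 34.2% in runs 9, 10 and 2 and at 53.3% and 50.4% in runs 11 and 8, below its Sc fragment, at 84.0% to 94.4%, in each. Taking set 1 alone, Δmet of CTCF.1 went from −31.2 to −54.6 points, a deeper difference in NPs, and in set 2 it went from −43.2 to −41.2. CTCF.2 WT was at 2.04% and 24.0% in ESC runs 4 and 1 and between 32.3% and 51.9% in NP runs 9, 10, 11, 2 and 8. The change of Δmet of CTCF.1 was 9.04 ± 8.82 points over all runs, −2.62 without ESC run 4, 5.12 without ESC run 7 and 5.74 without NP run 11, and that of CTCF.2 was 17.3 in place of 30.3, so how much protection was lost at CTCF sites depends on the runs counted.

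The first CpG inside the motif was the least methylated CpG of the CTCF.1, CTCF.2 and REST WT fragments in NPs. It had 1 methylated read of 818 in the CTCF.1 WT fragment in NPs (0.122%, exact interval 0.00310% to 0.679%) and 114 of 196 in its Sc partner (58.2%, 50.9% to 65.2%). For CTCF.2 these were 2.00% of 499 reads and 79.2% of 4619, and for REST 0.991% of 908 reads and 94.3% of 159. The difference from Sc was not always deepest there, with Δmet in NPs of −58.0 points at this CpG and −72.4 at −84 bp for CTCF.1, and −77.2 and −87.3 (at −148 bp) for CTCF.2. Within 100 bp of the motif, the WT fragments of CTCF.1, CTCF.2 and REST were at 36.1%, 32.5% and 38.3% in NPs, at 100 to 200 bp at 38.5%, 30.6% and 33.9%, and beyond 200 bp at 68.2%, 77.4% and 72.1%. Δmet of CTCF.2 was −58.7 points within 100 bp, −61.4 at 100 to 200 bp and −12.5 beyond 200 bp, so protection was weaker only beyond 200 bp. Their HMRs in NPs spanned −211 to 37 bp for CTCF.1, −187 to 151 bp for CTCF.2 and −211 to 252 bp for REST, with 15, 16 and 19 CpGs. In ESCs the HMR of CTCF.2 had covered the whole range from −291 to 252 bp, and that of CTCF.1 had reached from −187 to 252 bp, whereas REST had 2, from −291 to −211 and from −148 to 1 bp, with 6 and 9 CpGs, and so fewer CpGs than in NPs. Over the CpGs compared within the sets, the HMR of CTCF.1 was wider in NPs. It lay from −178 to −32 bp in ESCs and −211 to 1 bp in NPs in set 1. In set 2 it lay from −187 to 1 bp and −211 to 1 bp. Each set compared 19 CpGs of CTCF.1, none of them downstream of the motif, so its downstream narrowing was not tested there. The narrowing around CTCF.2 was not found in set 2, with HMRs from −208 to 1 bp in ESCs and from −208 to −121 and −101 to 1 bp in NPs, but set 2 compared 19 CpGs, none of them downstream of the motif, so the downstream side was not tested there.

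**Figure D5:**
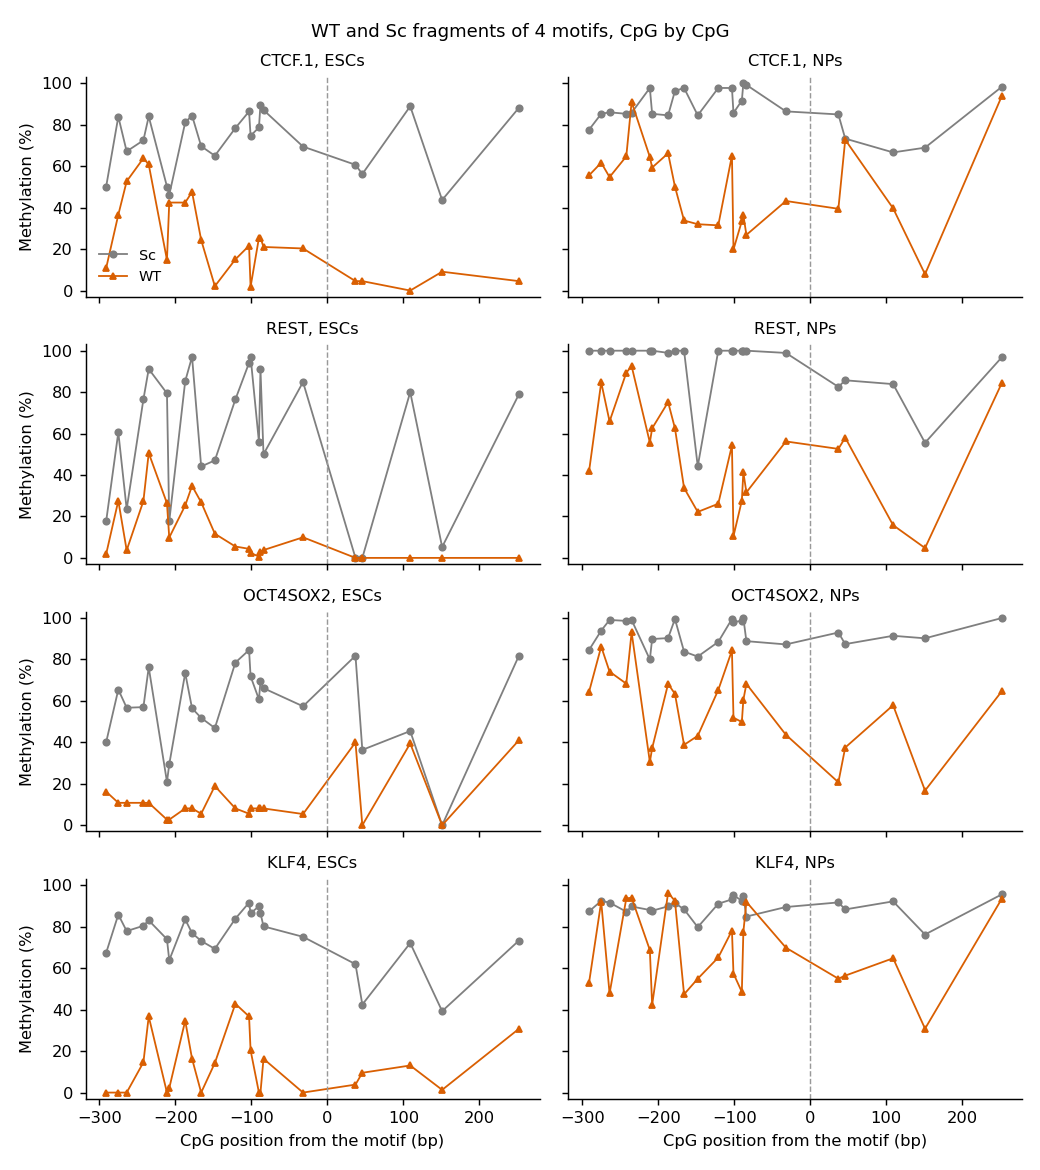
Methylation in percent of the WT and Sc fragments of CTCF.1, REST, OCT4SOX2 and KLF4 at each CpG outside the motif, against the distance from the motif in bp, in ESCs (left) and NPs (right). In NPs the WT lines lie below the Sc lines at most CpGs, and the gap is smallest for KLF4, with mean levels of 67.2% and 89.4%.

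OCT4SOX2, a composite site for the pluripotency factors OCT4 and SOX2, and KLF4, a site for another pluripotency factor, also kept HMRs. OCT4SOX2 WT went from 12.1% to 56.0% and its Sc fragment from 56.9% to 92.3%, with Δmet of −44.8 ± 11.6 and −36.3 ± 4.72 points and 4 CpGs that differed between the pools. Its HMR went from −291 to 46 bp in ESCs and from −211 to 252 bp in NPs. At 151 bp the WT fragment was at 16.7% in NPs and the Sc fragment at 90.2%. Nearly all NP reads of this WT fragment, 99.6%, came from run 7, where it was at 56.2%, while its Sc fragment was read in NP runs 9, 10, 11, 2 and 8, at 90.3% to 95.2%, so the NP difference sets different runs side by side. Without NP run 7, 5 CpGs from 37 to 252 bp kept enough reads, nearly all from run 9, and an HMR was found in NPs, while 2 of the 20 CpGs of the ESC HMR were still compared, too few for a call. KLF4 WT went from 13.4% to 67.2% and its Sc fragment from 74.4% to 89.4%, so that Δmet shrank from −61.0 ± 9.80 to −22.2 ± 6.09 points, with 21 differing CpGs. In NPs its WT fragment was at 67.5%, 69.6% and 66.2% in runs 9, 10 and 2, below the 81.0% to 95.6% of the Sc fragment. HMRs remained from −166 to −88 bp and from −32 to 151 bp, where ESCs had one over the whole range.

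The ESC side of KLF4 rests on different runs for WT and Sc. The WT fragment was read in ESC run 4 alone, which held 6.64% of the Sc reads, and the Sc fragment was at 22.4% in run 4 and at 85.5% and 84.8% in runs 5 and 1. Within set 1, Δmet of KLF4 was −8.98 points in ESCs and −26.5 in NPs, a change opposite in sign to that over all runs. The protection of KLF4 in NPs was thus found in both ways of counting, and its loss on differentiation was not. Over the ways of counting in which they could be compared, the mean of all Sc fragments as reference included, Δmet in NPs lay between −26.5 and −20.5 points for KLF4, −47.9 and −39.8 for REST, −52.9 and −41.0 for CTCF.2 and −54.6 and −38.0 for CTCF.1. For OCT4SOX2 it lay between −37.2 and −31.7, and at −61.3 within runs, where 5 CpGs were left.

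The HMRs of SOX9, SOX2, PU.1 and CREB in NPs were small. SOX9, a TF of neural and cartilage progenitors, went from 26.5% to 82.4% at WT and from 69.7% to 92.0% at Sc, and Δmet went from −43.2 ± 9.34 to −9.58 ± 5.94 points, with 22 differing CpGs. ESC run 4 held 98.0% of the ESC reads of SOX9 WT and 0.937% of those of its Sc fragment, so this ESC difference sets different runs side by side. Within runs Δmet of SOX9 was 6.36 points in ESCs (5 CpGs) and −6.37 in NPs, with no HMR in either. Over all runs its HMR lay from −291 to −32 bp in ESCs and from 37 to 151 bp in NPs, where 4 CpGs had a mean Δmet of −39.1 points. This HMR rests on NP run 9, without which none of its 4 CpGs had enough reads to be compared, and over the other CpGs Δmet in NPs was then −4.36 points and its change 52.6 in place of 33.6. SOX2, for which OCT4 is the partner in the composite site, went from 39.3% to 83.8% at WT with Δmet of −18.7 ± 13.9 and −7.41 ± 4.77 points, a change within its interval of ± 14.7. All ESC reads of its WT fragment came from run 4, and 94.4% of those of its Sc fragment from run 7. Without ESC run 7 its ESC HMR was lost, Δmet in ESCs was −8.89 points and its change 0.566 in place of 11.3.

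PU.1, a TF of blood cells, went from 53.5% to 83.2% at WT, with Δmet of −18.1 ± 9.75 and −6.51 ± 5.76 points. Its HMR lay from −32 to 109 bp in ESCs and from −178 to −121 bp in NPs, and so at different CpGs. Without ESC run 4 or NP run 9, 2 of the 5 CpGs of the ESC HMR had enough reads to be compared, too few for a call, and over the CpGs left Δmet in ESCs was −8.29 and −10.3 points and its change 1.77 and 2.65 in place of 11.6. In set 1 Δmet of PU.1 in ESCs was −30.3 ± 25.4 points with an HMR, on 11 WT reads per CpG, and its change 24.8. CREB, a TF that responds to cyclic AMP, went from 50.2% to 88.5% at WT and had no mean difference beyond its interval in either pool over all runs, at −3.99 ± 4.99 and −2.36 ± 2.91 points. Δmet of CREB in ESCs was −14.3 points without ESC run 4 (a change of 14.9 in place of 1.63) and 11.6 in set 1, so its sign depends on the runs counted. Its HMRs held 4 CpGs from −90 to −32 bp in ESCs and 4 from 46 to 252 bp in NPs. The NP one was lost without NP run 8, where Δmet in NPs was −1.16 points. Without ESC run 4 or ESC run 7 none of its 4 CpGs could be compared, and Δmet in NPs over the CpGs left was 0.643 points. The ESC one was lost without ESC run 1 or ESC run 7, where Δmet in ESCs was −4.21 and 8.71 points. For CREB, PU.1 and SOX9 the 2 pools thus share a call and not a region.

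The motifs with an HMR in ESCs and none in NPs differed in what was left in NPs. NRF1, an activator of metabolic genes, went from 31.5% to 93.1% at WT and from 75.5% to 90.1% at Sc, and Δmet from −44.0 ± 9.24 to 3.04 ± 5.49 points, a change of 47.1 ± 10.8 with 16 differing CpGs. In ESCs, NRF1 WT was at 20.9% in run 4 and at 77.2% in run 5, and its Sc fragment at 42.1% and 84.2%. Run 4 held 78.0% of the WT and 16.4% of the Sc reads. Δmet of NRF1 in ESCs was −3.55 points and its change 7.44 without that run. In set 1, where WT and Sc share their runs, Δmet of NRF1 went from −21.2 to 4.11 points, and in set 2 it changed by −5.81. The ESC HMR of NRF1 was not called in either set, without ESC run 4 or within runs, so its place among the lost motifs depends on how runs are combined. In NPs the WT fragment was at 94.1%, 94.4% and 85.2% in runs 9, 2 and 8, and no HMR was found there. In set 2 Δmet of NRF1 in NPs was −9.36 ± 16.9 points, within counting error.

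OTX2, a TF of early epiblast and forebrain, went from 27.5% to 81.6% at WT and from 64.2% to 90.7% at Sc. Its Δmet was −36.7 ± 7.19 points in ESCs and −9.06 ± 4.87 in NPs, still below 0 beyond the interval, and within set 1 it went from −18.7 to −8.71. KLF7, a relative of KLF4 active in neurons, went from 40.2% to 85.0% at WT, with Δmet of −31.5 ± 8.80 and −10.6 ± 5.01 points. In set 1 Δmet of KLF7 was 5.32 points in ESCs and −16.5 in NPs, and without ESC run 4 it was −4.16 points in ESCs and changed by −7.84. Comparing WT with Sc within runs gave KLF7 an HMR in NPs and none in ESCs, so the same holds for it as for NRF1.

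SOX17, an endoderm TF, went from 56.0% to 92.8% at WT, with Δmet of −15.4 ± 6.69 and 2.07 ± 8.52 points. Its Δmet in NPs was 10.1 points without NP run 11 and −3.23 without NP run 8, and its ESC HMR was lost without ESC run 5, where Δmet in ESCs was −19.4 points. Run 7 held 72.4% of the ESC reads of SOX17 WT, and where WT and Sc share their runs Δmet of SOX17 in ESCs was 1.17 points (set 2) and 0.151 (within runs), with no HMR. FOXA1, a pioneer TF of endoderm, was at 60.0% and 89.1% at WT, and ETS at 33.4% and 85.7%. Their Δmet values, 4.0 ± 6.67 and 2.80 ± 4.68 points for FOXA1 and −0.925 ± 14.9 and 6.84 ± 7.81 for ETS, were within counting error in both pools over all runs. For FOXA1 this was not so in set 1, where Δmet in ESCs was −17.3 ± 10.4 points with 2 HMRs and changed by 19.9, nor within runs, at −14.5 in ESCs. For ETS it was not so in set 1 in NPs, at 10.3 ± 8.50 points. Over all runs each call rested on 3 CpGs in ESCs, from 109 to 252 bp for FOXA1 and from −84 bp into the motif for ETS. Without ESC run 4 the ETS call was lost, with Δmet in ESCs of −26.4 points. Without ESC run 4 or NP run 9 none of the 3 CpGs of the FOXA1 call could be compared, and Δmet in ESCs over the CpGs left was −9.70 and 10.5 points.

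NANOG, a pluripotency TF, was the motif with an HMR in NPs alone. Its WT fragment went from 56.4% to 91.7% and its Sc fragment from 46.2% to 95.4%, and Δmet from 10.2 ± 18.6 to −3.72 ± 5.48 points, both within counting error. The HMR lay between 37 and 151 bp, where its 4 CpGs averaged −20.4 points. None of these CpGs could be compared without NP run 9, where Δmet in NPs over the CpGs left was −0.250 points, and NANOG could not be compared at all without ESC run 4. In ESCs, Δmet of NANOG was −1.25 points without run 7 and 18.3 without run 5. Over all runs, the 14 motifs with no HMR in either pool were E2F1, ER, FOXD3, GATA, GR, KAISO, N-MYC, NFY, OCT4, PAX7.1, PAX7.2, RUNX1, ZF5 and c-REL, with Δmet in NPs of −11.9 to 88.9 points, the latter being c-REL. Of these, comparing WT with Sc within runs gave E2F1 an ESC HMR from −148 to −88 bp (6 CpGs, mean Δmet −42.0 points) and PAX7.1 one from 37 to 151 bp (4 CpGs, −42.7), and PAX7.1 also had one in set 1 and without ESC run 6. E2F1 had one in ESCs without ESC run 3 or 5, FOXD3 without ESC run 3 and at 50 reads, and RUNX1 without ESC run 5, and E2F1 and RUNX1 with look-alike runs counted once. Against the mean of all Sc fragments, by difference alone, OCT4, ZF5 and c-REL had one in ESCs and N-MYC in NPs.

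The identity of the cells was checked with the RNA-seq libraries of the series, 3 of ESCs and 3 of NPs, with 20570050, 21602345 and 23976914 gene counts in ESCs and 20519702, 22132988 and 21214374 in NPs. These libraries are separate samples from the pools, and nothing states that they come from separate cultures, so p-values measure the spread between these libraries. With edgeR's quasi-likelihood test (called at a fold change of 3 or more with an adjusted p below 0.001), 3396 of 15197 genes, or 22.3%, were called, 1880 (12.4%) higher and 1516 (9.98%) lower in NPs. All 8 ESC markers fell. Their summed level was 1633, 1631 and 1589 RPKM in the 3 ESC libraries and 7.65, 13.6 and 6.19 in the NP libraries, and the most abundant were Pou5f1 in ESCs, at 416 RPKM, and Klf4 in NPs, at 2.93. Tbx3 lost its call without NP library 1. All 8 neural progenitor markers (Sox1, Pax6, Nes, Sox9, Olig2, Ntrk2, Fabp7 and Vim) rose, with sums of 68.6, 73.8 and 75.7 RPKM in ESCs and 451, 336 and 375 in NPs. Vim, an intermediate filament protein, was the most abundant in both, at 67.1 and 242 RPKM. The labels thus fit their markers, and fewer cells of a type and less RNA per cell cannot be told apart in such bulk libraries.

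Markers of other cell types were also present in the NP libraries. Their counts stand beside 12.4% of all genes tested that rose and 9.98% that fell. Of 4 neuron markers, Dcx and Map2 rose and Tubb3 and Rbfox3 were not called, and the sums were 73.4, 72.3 and 74.3 RPKM in ESCs and 174, 68.7 and 133 in NPs, mostly Tubb3 (109 on average in NPs). Of 5 endoderm markers, 4 were tested and Sox17, Gata6 and Foxa2 rose, with sums of 1.75, 1.93 and 1.13 RPKM in ESCs and 19.5, 20.8 and 24.4 in NPs, led by Foxa2 (10.6). Of 4 mesoderm markers 1 was tested and it was not called, with sums of 2.10, 2.29 and 1.84 RPKM in ESCs and 1.54, 2.20 and 0.981 in NPs, led by Tbx6 (0.772). Of 3 trophoblast markers 2 were tested and Eomes fell, with sums of 1.66, 1.74 and 1.24 RPKM in ESCs and 2.03, 0.981 and 2.07 in NPs, led by Cdx2 (1.44). Cdx2, at 0.173 RPKM in ESCs, was not called, but was called as higher in NPs with DESeq2 and without the expression filter. No marker was at 0 in every library of a group. The part that cells other than progenitors have in the methylation values was not tested.

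Of the genes of the enzymes that set or remove methylation, 5 of the 8 tested were called, beside 22.3% of all genes tested. Dnmt3b, a de novo methyltransferase (ENSMUSG00000027478, GRCm38 chromosome 2, 153649450 to 153687730), was at 63.6, 65.5 and 54.1 RPKM in ESCs and 4.97, 6.85 and 7.59 in NPs (log2 fold change −3.24 ± 0.18 SE, edgeR adjusted p = 2.69e-06). Dnmt3l, its cofactor (ENSMUSG00000000730, chromosome 10, 78041947 to 78063622), was at 161, 173 and 134 RPKM in ESCs and at 0.213, 0.585 and 0.139 in NPs (log2 −8.93 ± 0.40). Both genes were called lower in NPs, as were 9.98% of all genes tested. Dnmt3a, the other de novo enzyme, was at 16.2 ± 1.18 RPKM (SD, n = 3) in ESCs and 15.4 ± 2.48 in NPs and was not called, and neither was Dnmt1, the maintenance enzyme, at 80.6 ± 0.508 and 70.4 ± 4.60. Uhrf1, at 119 ± 5.0 and 57.8 ± 3.98 RPKM, did not reach the fold change of 3, and was called at a fold change of 2. FR1 was thus more methylated in the cell type with less Dnmt3b and Dnmt3l RNA.

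The TET genes moved in opposite directions. Tet1 (ENSMUSG00000047146, chromosome 10, 62804570 to 62908996) was at 70.8, 64.1 and 71.9 RPKM in ESCs and 5.68, 4.02 and 3.39 in NPs (log2 −3.98 ± 0.20). Tet2 fell from 20.1 ± 2.77 to 3.47 ± 0.733 RPKM. Tet3 (ENSMUSG00000034832, chromosome 6, 83362373 to 83459084) rose from 0.801, 0.664 and 0.808 RPKM to 13.6, 5.27 and 5.72, with the first NP library above the other NP libraries. Tdg, at 0.352 and 0.428 RPKM, was below the expression filter and not tested. A link between these levels and the methylation of FR1 was not tested, since the methylation is known in a single pool per cell type.

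The factors of the protected motifs changed in different ways. Among the 28 genes of the factors, 27 were tested and 14 called, 7 higher and 7 lower, against the 22.3% called among all genes tested. The 9 motifs with HMRs in both cell types map to 7 genes here (PU.1 was given no gene), of which Rest, Klf4, Sox2 and Pou5f1 fell, Sox9 rose, and Ctcf and Creb1 were not called. Ctcf (ENSMUSG00000005698) was at 50.6, 51.4 and 42.2 RPKM in ESCs and at 45.9, 36.3 and 42.8 in NPs (log2 −0.21 ± 0.13, edgeR adjusted p = 0.191). The groups overlap, and both CTCF motifs kept an HMR. Rest (ENSMUSG00000029249) was at 77.9, 77.7 and 73.4 RPKM in ESCs and at 9.70, 11.2 and 8.78 in NPs (log2 −2.95 ± 0.12, edgeR adjusted p = 8.66e-07).

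Klf4 fell from 76.4 ± 0.582 to 2.93 ± 0.227 RPKM, and Pou5f1, which encodes OCT4, from 416 ± 20.9 to 1.14 ± 0.714. Sox2, which neural progenitors also express, was at 230, 232 and 257 RPKM in ESCs and at 65.2, 51.0 and 53.8 in NPs (log2 −2.08 ± 0.13). The composite OCT4SOX2 motif therefore kept its HMR in cells with 1 of the 2 factors still well expressed, and the KLF4 motif in cells with little Klf4 RNA. Sox9 rose from 0.0488, 0.0933 and 0.0413 RPKM to 23.6, 22.6 and 18.5 (log2 8.44 ± 0.27). Of the 6 genes of motifs with an HMR in ESCs alone, Otx2 fell (13.7 ± 1.53 to 0.258 ± 0.0636 RPKM). Foxa1 (0.407 ± 0.130 to 15.7 ± 4.0), Sox17 (0.126 ± 0.0753 to 4.02 ± 0.991) and Ets1 (0.663 ± 0.148 to 2.79 ± 1.23) rose. Ets1 lost its call without ESC library 1, 2 or 3 or NP library 1.

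Nrf1 and Klf7 were not called. Nrf1 was at 8.62, 8.84 and 8.08 RPKM in ESCs and 8.51, 7.61 and 8.02 in NPs. Klf7 was at 1.70 ± 0.176 and 2.01 ± 0.183 RPKM. Nanog, whose motif had an HMR in NPs alone, fell from 300 ± 15.9 to 0.968 ± 0.624 RPKM. The 14 motifs with no HMR map to 15 genes, with none given for RUNX1 and c-REL. Of the 15 genes, 2 fell, 3 rose, 9 were not called and Esr1 was not tested, beside 22.3% called among all genes tested. Gata3 among those that rose lost its call without ESC library 1 or NP library 1. No single direction of the RNA went with a kept or a lost HMR, and the gained HMR rests on 1 gene. The relation was not tested across motifs.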

How the data were processed

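For Hi-TransMet, the authors trimmed reads with Trim Galore 0.4.4, aligned them to FR1 with Bismark 0.20.0 and removed duplicates by molecular identifier. The authors deposited read counts, total and methylated, for every construct, CpG and run. They also deposited percent values, which differed by at most 0.0005 points from those recomputed here. For RNA-seq, the authors used Trimmomatic 0.38, STAR 2.6.1b and featureCounts, and deposited counts per gene (51912 identifiers, 51633 with a symbol). The counting used no strand, so antisense genes cannot be told apart.

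Reads were summed over runs. A fragment's level is the mean over its CpGs. The share of a fragment's reads held by a run is taken from its median reads per CpG. Fisher's exact test was run per CpG with Benjamini-Hochberg adjustment. RNA-seq used edgeR 4.0.16 with TMM in R 4.3.3 on genes with at least 1 RPKM in a library. Python 3.11.15, numpy 2.4.6, scipy 1.17.1, pandas 2.3.3 and matplotlib 3.10.9 did the rest. The tests were tried on simulated data first.

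Motifs named in full have an HMR in a pool, or are the 3 Sc fragments with the largest and the 3 with the smallest gain. Genes named are those of their factors, the methylation enzymes and fixed marker lists. N-MYC, PAX7.2, RUNX1 and c-REL WT, OCT4 and PAX7.2 Sc and the motifs E2F1, FOXD3, N-MYC, NFY, OCT4, PAX7.1, RUNX1, ZF5 and c-REL were named after their values were seen. Members and lists were chosen with earlier results of these data known.

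Alternatives were read minimums of 20 and 50, no CpGs inside the motif, the share of methylated calls over a fragment, differences of 20 points, 5 CpGs per HMR, the mean of all Sc fragments as reference, WT against Sc within runs, each run or library left out, library sizes alone, DESeq2 1.42.0, no expression filter, a fold change of 2 and a replicate block. The 2 run sets, look-alike runs counted once, ESC run 4 with NP run 9 alone, the mean Δmet without c-REL and the other FOXD3 control were chosen after seeing the data. DSS was not used here. The fragments treated with SssI, TET knockout cells, single lines and siRNA samples were not analysed here.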

Additional observations from a re-analysis of the deposited data

Results flagged for a closer look

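The ratio of WT to Sc methylation odds differed between ESCs and NPs at 394 of 699 CpGs, or 56.4%, by Zelen's exact test. Each motif below had 23 to 25 CpGs compared, and no count was tested against that share. Among motifs with an HMR, the numbers of such CpGs were 22 for SOX9, 21 for KLF4, 19 for CTCF.2 and CREB, 18 for OTX2, 17 for CTCF.1, 16 for NRF1, 15 for FOXA1 and PU.1, 14 for KLF7 and ETS and 13 for SOX2. Fewer were found for NANOG (8), REST (6), SOX17 (5) and OCT4SOX2 (4). In ESCs, NANOG Sc, REST Sc and OCT4SOX2 WT had medians of only 33, 34 and 37 reads per CpG. ESC run 4 holds different shares of the WT and Sc reads of most of these motifs. Over fewer motifs, 191 of 346 CpGs differed without that run. Within sets, 187 of 452 differed in set 1, where it is the only ESC run, and 59 of 169 in set 2. Its part in the counts of single motifs was not tested.

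CpGs of FR1 outside the range compared were also read, in ESC runs 3 and 6 and NP run 6 alone. The 5 CpGs from −379 to −330 bp were 47.4% methylated in ESCs and 95.8% in NPs, and the 11 CpGs from 387 to 481 bp were at 77.2% and 96.5%. They lie beyond the range of the comparison and entered no test.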

How the results depend on the processing

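Of 1910 alternative values of 124 results, 1795 stayed, 94 moved, 7 weakened, 4 strengthened and 10 reversed. A value stayed when it was on the same side of its test or within its interval or, for a count, within a factor of 1.5. This is a wide limit for small counts, such as those of motifs with an HMR. Where a value differs below, the cause was not tested.

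At 20 reads, 21 CpGs were lower in NPs. At 50 reads, 17 were lower, and HMRs were found for 6 motifs in NPs and 5 in both, with 1 CpG of REST and none of OCT4SOX2 and NANOG left to compare. Asking for 20 points left 5 in NPs and 5 in both, and 5 CpGs per HMR left 6 in NPs and 6 in both. The fall from 9 to 6 in both is not beyond the factor of 1.5. Run set 1, with 21 motifs and 452 motif CpGs compared in place of 30 and 699, gave gains of 53.0 (Sc) and 51.5 (WT) points, 10 lower CpGs, HMRs for 8, 5 and 4 motifs in ESCs, NPs and both, and 187 CpGs by Zelen's test. Its change of Δmet was −23.4 for CTCF.1, −17.6 for KLF4 and −21.8 for KLF7, and Δmet of KLF7 in ESCs was 5.32. Run set 2, with 10 motifs and 169 motif CpGs, gave gains of 12.4 and 11.4 points, 309 higher and 63 lower CpGs, HMRs for 2, 2 and 2 motifs, 59 CpGs by Zelen's test, a change of −5.81 for NRF1 and Δmet of 1.17 for SOX17 in ESCs. Within runs, Δmet in ESCs was 1.99 for KLF7 and 0.151 for SOX17.

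Leaving out 1 run at a time, the gain ranged from 17.2 to 33.7 points (Sc) and 18.4 to 36.5 (WT), higher CpGs from 555 to 1208, lower CpGs from 27 to 52, HMRs from 5 to 17 in ESCs, 3 to 10 in NPs and 2 to 9 in both, Zelen's count from 191 to 398, and the change of Δmet from −2.62 to 11.3 for CTCF.1 and −7.84 to 24.2 for KLF7.

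Without an expression filter 5281 genes were called, and without 1 library 2471 to 3384, with 12 to 14 factor genes. The replicate block gave 3359 genes, and the deviations of libraries with the same number correlated at −0.063, 0.015 and −0.135, so the numbers do not pair them. Library sizes alone in place of TMM gave 3357 genes and moved the median log2 fold change of all genes to 0.12 from 0.03.

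Both pools stand alone, so differences between cultures were not measured. Reads per CpG set the precision, and c-REL Sc and N-MYC WT in NPs rest on fewer than 20. Intervals cover counting error only, since cells of 1 insertion share their history. Fisher's exact test treats reads as independent, and its adjusted p is too small where they are not. The authors pooled biological and technical replicates, and since no label says which runs are which, runs were not used as replicates.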
